A study of Mus musculus with 18 samples.

Results

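MiR-21a is the mouse miR-21, and both arms of its hairpin were followed here, mmu-miR-21a-5p and mmu-miR-21a-3p. They are the 2 rows with these names among the 1966 miRNAs of the deposited small RNA table, and both reached 1 CPM in 3 or more libraries, as did 726 miRNAs in all. The members were taken by name, but earlier results of these data were known when they and the lists used below were chosen. Small RNA was sequenced from 3 wildtype adrenal glands (AG, genotype "CRE -" in the labels), 7 R26 IGF2BP1 tumors (TI, CRE + with the IGF2BP1 transgene) and 8 R26 IGF2BP1/MYCN tumors (TIM, labelled IMP1/MYCN and CRE +, IMP1 being another name of IGF2BP1), which gives 18 libraries of bulk tissue. In both tumor groups the IGF2BP1 transgene sits in the Rosa26 locus behind a stop cassette that a Cre recombinase driven by the Dbh promoter removes in adrenal glands and peripheral nerves, and the MYCN transgene of TIM is opened by the same Cre. The transgenes lack their native 3'UTR, and the mice were backcrossed to C57Bl6/N. One TI mouse was heterozygous for IGF2BP1 according to the labels and the others homozygous. Most tumors were labelled only as tumor, while 1 TI and 2 TIM tumors were labelled as adrenal and 1 TIM tumor as spinal. The columns of the table name the group but not the mouse, so these tumors cannot be told from the rest of their group. The libraries of a group are therefore called by letters, which carry no order and pair nothing. Ages are not given in the labels, and the transgenes themselves are not measured in small RNA. The paper reports a shorter median survival of IGF2BP1/MYCN mice than of homozygous IGF2BP1 mice. Age may therefore differ between TIM and TI, and its part was not tested.

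MiRNAs are cut from hairpins in the nucleus by Drosha and in the cytoplasm by Dicer, and one strand of the resulting duplex, the guide, is loaded into an Argonaute protein. The guide pairs with target mRNAs mainly through its seed, bases 2 to 8, and represses them, while the other strand, the passenger, is mostly degraded. The 5p arm is the usual guide of miR-21. It is abundant in most tissues, is raised in many solid tumors, and has the tumor suppressor Pdcd4 among its known targets, which makes it one of the classical oncogenic miRNAs.

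The mature sequences of both arms and of the paralogs miR-21b and miR-21c are shown 5' to 3', because the seed defines what each can target and because near-identical sequences can share reads. The seed is in capitals. The sequences are those of RefSeq on GRCm38.p6, the build also called mm10.
mmu-miR-21a-5p: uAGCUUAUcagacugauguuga
mmu-miR-21a-3p: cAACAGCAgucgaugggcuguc
mmu-miR-21b: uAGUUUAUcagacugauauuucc
mmu-miR-21c: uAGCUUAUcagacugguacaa
Both arms come from a hairpin of 92 bases on the minus strand of chromosome 11, at chr11:86584067-86584158, in which mmu-miR-21a-5p takes bases 86584120 to 86584141 and mmu-miR-21a-3p bases 86584082 to 86584103. The hairpin lies within Vmp1, a gene for a vacuole membrane protein of autophagy. In GENCODE vM39 on GRCm39 the hairpin fell in an annotated UTR of 31 of the 31 Vmp1 transcripts that span it, where 5' and 3' UTR were not told apart. Of 1679 mature mouse miRNAs in the RefSeq table, 1 other shared the seed of mmu-miR-21a-5p, and this was mmu-miR-21c from chromosome 8. No other shared the seed of mmu-miR-21a-3p. MiR-21b, from chromosome 3, differs from mmu-miR-21a-5p at 4 of 22 positions and has another seed, and miR-21c differs at 5 of 21 positions, all after the first 15 bases.

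Both paralogs were listed but nearly empty. Over all 18 libraries mmu-miR-21b had 20 reads and mmu-miR-21c had 13 reads. Neither reached more than 5 reads in any library, and neither was tested. How reads that match several of these sequences were divided is not given in the sources used here, so an unknown part of the reads of each paralog may belong to another.

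The libraries held 11641696 to 23435621 miRNA reads, and the deposited values are CPM on a library total corrected by its TMM factor, which ran from 0.700 to 1.85. MiR-148a-3p, the most abundant miRNA of both tumor groups, took 4.19% to 6.94% of the reads in AG, 2.29% to 61.9% in TI and 6.53% to 44.2% in TIM, so that a share of reads and a TMM-scaled level need not rank libraries alike. The library AG a stood apart from the other AG libraries. For 10 of 726 miRNAs its level was more than 4-fold above both of them on the log2(CPM + 1) scale, against 0 in AG b and 0 in AG c. Mmu-miR-21a-3p was one of the 10, at place 5 by its margin. The others, singled out after their values were seen, were miR-202-5p, known from gonads, the epithelial miR-200a-3p, miR-200a-5p, miR-200b-3p and miR-429-3p, the sensory cluster members miR-96-5p and miR-183-5p, and miR-12182-3p and miR-547-3p. MiR-202-5p had 262.7 CPM in AG a, 24.3 in AG b and 7.91 in AG c. The part of these differences in the results on miR-21a was not tested, and results that rest on AG a are given with and without it. Among the tumors, TI e stood above all other TI libraries by the same margin for 20 miRNAs, of which neither arm of miR-21a was one.

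The guide, mmu-miR-21a-5p, was among the most abundant miRNAs in every library. It had 121536 CPM in AG a, 58691 in AG b and 68786 in AG c. In TI it ran from 9898 to 106641 CPM (median 62097), and in TIM from 25892 to 69831 CPM (median 47673). AG a was the highest and TI f the lowest of all 18 libraries. The group means were 83004 ± 33749 CPM in AG (SD, n = 3), 55328 ± 34134 CPM in TI (SD, n = 7) and 47430 ± 16600 CPM in TIM (SD, n = 8). By these means AG came first and TIM last, and no neighbours in that order differed beyond their spread.

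**Figure D1:**
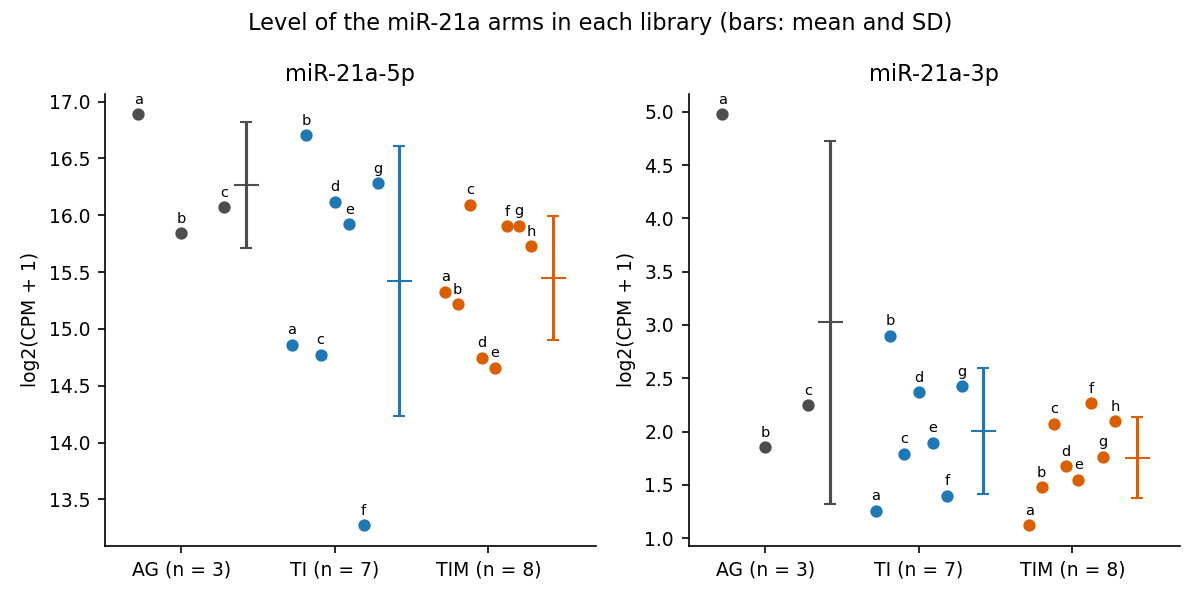
Level of mmu-miR-21a-5p (left) and mmu-miR-21a-3p (right) in log2(CPM + 1) for each library of AG, TI and TIM, with the mean and SD of each group beside the points. The groups overlap for both arms, and the AG a point lies far above the other AG points for mmu-miR-21a-3p, at 30.6 CPM against 2.61 and 3.75 CPM.

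MiR-21a-5p ranked between place 1 and place 10 of 1966 miRNAs in each library. It was at place 1 in AG a and TIM c, and at place 10 in TI f. By mean CPM it was at place 2 in AG, after miR-143-3p (167923 CPM), a miRNA of smooth muscle and stroma, and ahead of miR-10a-5p (61736 CPM). In TI it was at place 5 and in TIM at place 4. The first 3 places in both tumor groups were held by miR-148a-3p (504315 CPM in TI and 190444 CPM in TIM), the neural and endocrine miR-7a-5p (75923 and 88688 CPM) and miR-143-3p (70442 and 49725 CPM).

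Levels were compared with limma on log2(CPM + 1) across the 726 miRNAs, and a miRNA passed with a Benjamini-Hochberg adjusted p-value under 0.05. MiR-21a-5p did not pass in any comparison. Its log2 fold change was -0.85 in TI against AG (standard error 0.56, 95% interval -2.03 to 0.33, adjusted p = 0.21) and -0.82 in TIM against AG (standard error 0.55, 95% interval -1.98 to 0.34, adjusted p = 0.23). In 3 of 7 TI and 5 of 8 TIM libraries it was below all AG libraries, and the others overlapped with AG. TIM and TI differed by a log2 fold change of 0.03 (standard error 0.42, 95% interval -0.86 to 0.91, adjusted p = 0.98), and the sign of this difference turned with the scaling. The intervals reach down to 0.245 times the AG level in TI and 0.254 times in TIM, so that a sizeable drop was not excluded with these libraries, and neither was a small rise. By comparison, 55.8% of the miRNAs tested passed in TI against AG, 51.4% in TIM against AG and 5.23% in TIM against TI. The median log2 fold change of all 726 was -0.01, 0.18 and 0.06 in the same order. Without AG a the mean of AG was 63738 CPM, and the log2 fold changes of miR-21a-5p shrank to -0.54 in TI and -0.51 in TIM (adjusted p = 0.54 and 0.57 from limma). Fewer cells of a type that holds miR-21a and less of it per cell cannot be told apart in bulk tissue, and the labels do not state that the libraries of a group came from separate mice, so these p-values measure the spread between libraries.

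The tumor libraries varied more among themselves in TI than in TIM. The SD of log2(CPM + 1) was 1.19 in TI and 0.55 in TIM, and from the lowest to the highest library mmu-miR-21a-5p spanned 10.8-fold in TI and 2.07-fold in AG, with TIM in between. The low value of TI f was a large part of it, since the SD in TI was 0.79 and the span 3.81-fold without this library. Whether the spread differs between the groups was not tested.

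As a share of all miRNA reads, mmu-miR-21a-5p made up 11.3% in AG a, 5.82% in AG b and 6.46% in AG c. In TI the share ran from 0.924% to 8.54% with a median of 5.47%, and in TIM from 2.47% to 12.5% with a median of 4.95%. The reads behind these shares were 109071 to 2628858 per library, and the widest 95% Wilson interval was 0.0373 percentage points, so that counting error was negligible against the spread between libraries. These intervals cover counting error only. The mean share was 7.85% ± 2.98 in AG (SD, n = 3), 4.54% ± 2.82 in TI (SD, n = 7) and 6.19% ± 3.66 in TIM (SD, n = 8), which puts TIM before TI, while by mean CPM TI came before TIM.

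**Figure D2:**
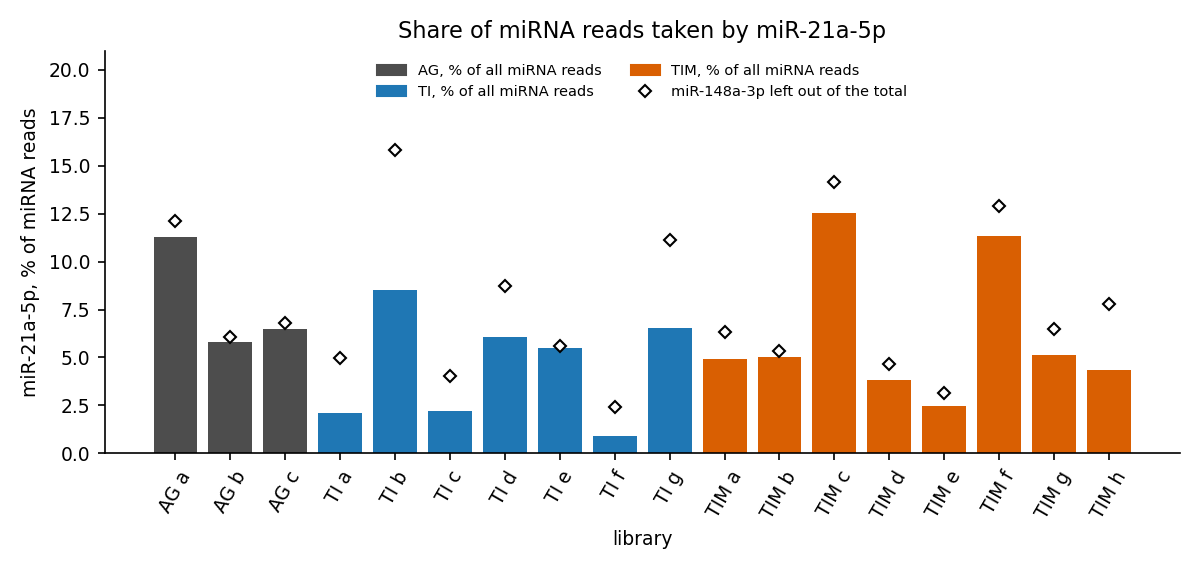
Share of mmu-miR-21a-5p in percent of all miRNA reads for each of the 18 libraries (bars, coloured by group), with the share after miR-148a-3p is left out of the total (diamonds). The bars run from 0.924% in TI f to 12.5% in TIM c, and the diamonds lie farthest above the bars in TI libraries such as TI b (8.54% and 15.8%).

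On the log2 scale the share differed by -1.06 in TI against AG (two-sided exact permutation test, p = 0.17), by -0.47 in TIM against AG (p = 0.30) and by 0.59 in TIM against TI (p = 0.28), with adjusted p = 0.30 over the 3 comparisons for each. Counted on totals without miR-148a-3p the shares were 8.32% ± 3.30 in AG (SD, n = 3), 7.52% ± 4.68 in TI (SD, n = 7) and 7.60% ± 3.93 in TIM (SD, n = 8). The differences then were -0.32, -0.22 and 0.10 on the log2 scale, which is less than the spread within each tumor group. The smallest p the exact test allows is 0.017 when TI and AG are compared, 0.012 with TIM and AG, and 0.00031 between the tumor types.

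The passenger, mmu-miR-21a-3p, was near the floor of what was tested in all libraries but one. It had 30.6 CPM in AG a (661 reads), 2.61 CPM in AG b (56 reads) and 3.75 CPM in AG c (81 reads). In TI it ran from 1.39 to 6.45 CPM (median 2.72, 18 to 106 reads), and in TIM from 1.18 to 3.81 CPM (median 2.29, 30 to 82 reads). AG b and AG c lay within the range of TI and of TIM, and AG a lay above all other libraries. By mean CPM the arm stood at place 337 of 1966 in AG, 477 in TI and 509 in TIM. The place in AG rested on AG a, since within a library the arm ranked 266 in AG a, 471 in AG b and 449 in AG c, and the AG mean without AG a was 3.18 CPM.

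In limma 1 of the 2 arms passed in 1 of the 3 comparisons, mmu-miR-21a-3p in TIM against AG. Its log2 fold change there was -1.27 (standard error 0.50, 95% interval -2.33 to -0.22, adjusted p = 0.042), against a mean of 12.3 ± 15.8 CPM in AG (SD, n = 3) and 2.47 ± 0.889 CPM in TIM (SD, n = 8). This call rested on AG a. Without it the log2 fold change was -0.30 (adjusted p = 0.59 from limma), and in edgeR on the recovered reads it went from -2.19 (adjusted p = 0.0038) with all libraries to -0.44 (adjusted p = 0.54) without AG a. The limma call was also lost without any one of TIM a, TIM b, TIM d, TIM e or TIM g, with adjusted p between 0.056 and 0.065. An exact permutation test over the libraries gave p = 0.097 when the smaller tail was doubled and p = 0.048 from the absolute difference. In TI against AG the log2 fold change was -1.02 (standard error 0.51, 95% interval -2.10 to 0.05, adjusted p = 0.097 from limma). In edgeR it went from -1.77 (adjusted p = 0.017) to -0.029 (adjusted p = 0.97) without AG a. In limma it was -0.045 without AG a (adjusted p = 0.94) and -1.61 without AG b, where it passed (adjusted p = 0.024 from limma). TIM against TI differed by -0.25 (standard error 0.38, 95% interval -1.06 to 0.55, adjusted p = 0.77 from limma).

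**Figure D3:**
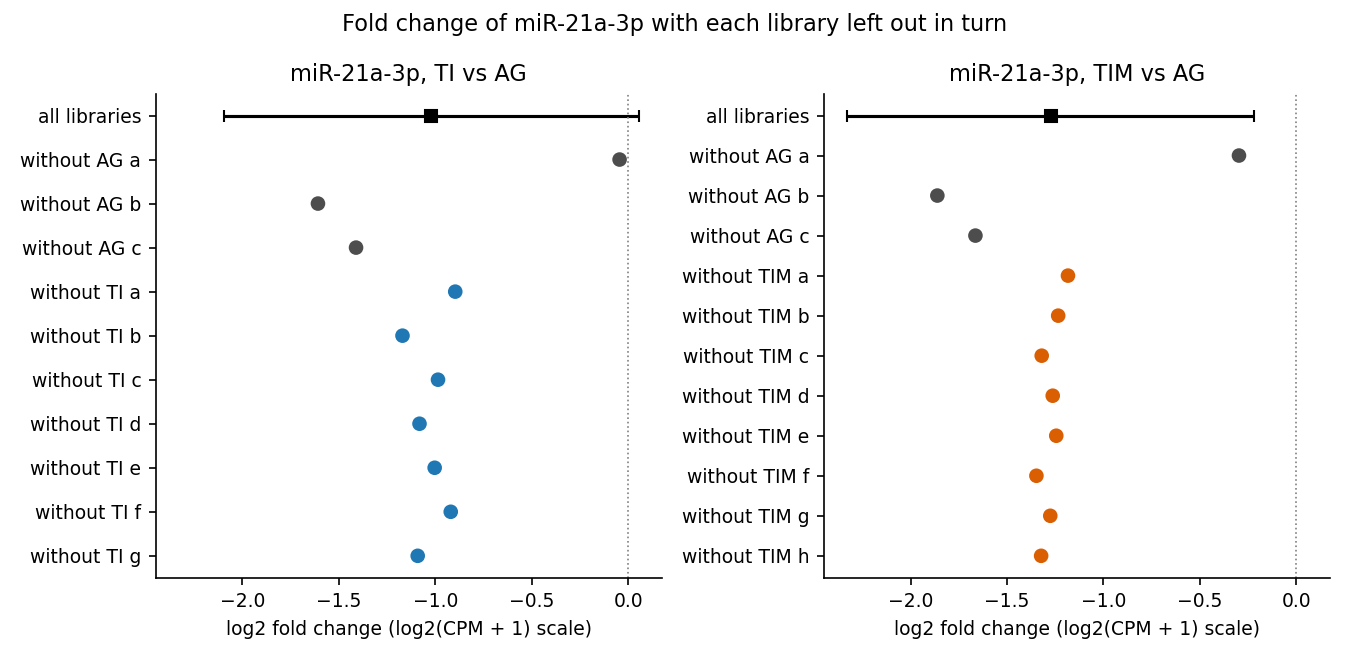
Log2 fold change of mmu-miR-21a-3p on the log2(CPM + 1) scale in TI against AG (left) and TIM against AG (right), with all libraries (square, with its 95% interval from limma) and with each library left out in turn (points, coloured by the group of the library left out). Without AG a the points move to -0.045 and -0.30, next to 0.

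AG a also differed from AG b and AG c in the summed levels of miRNAs that mark cell types. The 6 leukocyte miRNAs summed to 1039 CPM in AG a against 654 and 841 CPM in AG b and AG c. The 6 stromal and smooth muscle miRNAs summed to 124328 CPM in AG a against 176708 and 210991 CPM, the 2 endothelial ones to 39509 CPM against 38529 and 46092 CPM, the 4 erythroid ones to 715 CPM against 1294 and 2471 CPM, and the 5 neural and neuroendocrine ones to 45276 CPM against 108209 and 97058 CPM. None of these markers was at 0 in any library. The leukocyte sum was thus highest and the stromal, erythroid and neural sums lowest in AG a among the AG libraries. A sum follows its most abundant members, in AG miR-143-3p (mean 167923 CPM) for the stromal list. For the neural list these were miR-7a-5p (60999 CPM) and miR-375-3p (22018 CPM), while miR-9-3p hardly varied in AG (2.63 ± 0.075 CPM, SD, n = 3). The sums therefore do not show that each member moved, and the part of these markers in the level of miR-21a-3p in AG a was not tested.

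The arm ratio sets guide against passenger within a library, so that library scaling cancels out before the pseudocount. Per read of mmu-miR-21a-3p there were 3977 reads of mmu-miR-21a-5p in AG a, 22480 in AG b and 18354 in AG c. In TI the ratio ran from 6060 in TI f to 22794 with a median of 17110, and in TIM from 12518 to 34969 with a median of 18961. AG a and TI f had the lowest ratios of all libraries. Seen from the passenger, mmu-miR-21a-3p made up 0.0251% of the reads of both arms in AG a (95% Wilson interval 0.0233% to 0.0271%) and 0.0165% in TI f (0.0104% to 0.0261%), while the other 16 libraries lay between 0.00286% and 0.00881%. These intervals cover counting error only and not the spread between libraries, and the value of TI f rests on 18 reads.

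**Figure D4:**
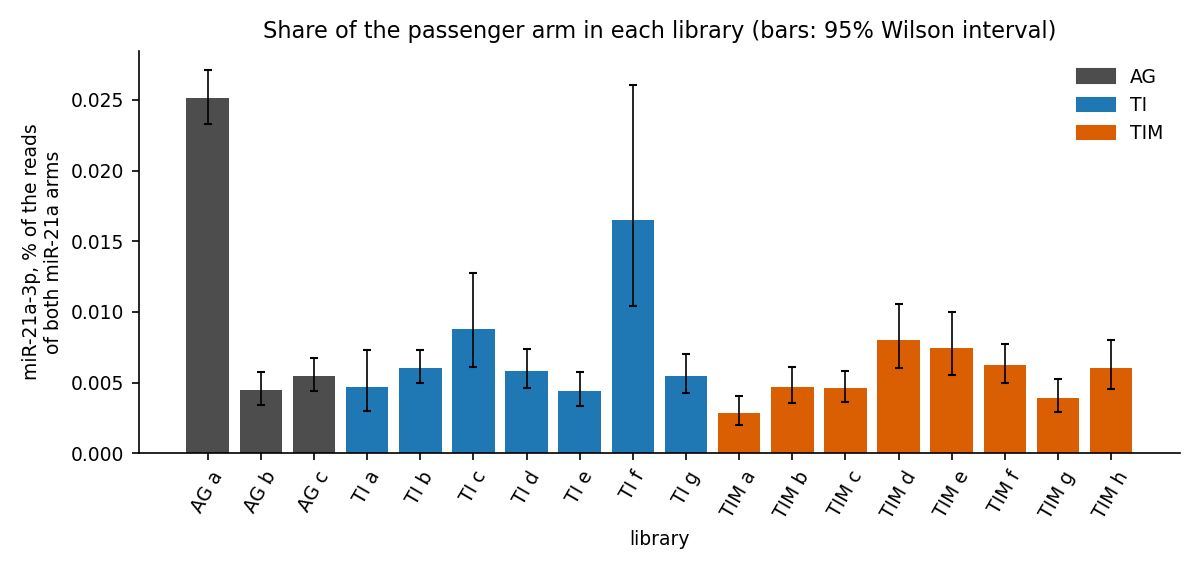
Share of mmu-miR-21a-3p in percent of the reads of both miR-21a arms in each of the 18 libraries (bars, coloured by group), with 95% Wilson intervals. AG a at 0.0251% and TI f at 0.0165% stand above the other libraries, which lie between 0.00286% and 0.00881%.

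The bias towards one arm was among the strongest of the 212 hairpins with both arms tested. The mean log2 ratio of the arms was 13.24 ± 1.15 in AG (SD, n = 3), 13.41 ± 0.76 in TI (SD, n = 7) and 13.70 ± 0.43 in TIM (SD, n = 8). By its size it took place 2 in AG, after miR-99a (13.24), place 2 in TI, after miR-381, whose 3p arm dominates (-13.64), and place 1 in TIM. Without AG a it took place 1 in AG (13.91), before miR-99a (13.23). Both others were named after their values were seen. In AG with all libraries the first 2 were nearly tied (13.2438 and 13.2407). The pseudocount of 1 CPM limits the size of a ratio whose minor arm is low, as that of miR-21a is. Hairpins with an arm below the filter are not ranked, so these places hold only among the 212. The median size over all hairpins was 2.75, 3.06 and 2.87. In limma on the log2 ratio miR-21a did not pass in any comparison, with a difference of 0.17 in TI against AG (standard error 0.46, 95% interval -0.79 to 1.14, adjusted p = 0.84), 0.45 in TIM against AG (standard error 0.45, 95% interval -0.49 to 1.40, adjusted p = 0.51) and 0.28 in TIM against TI (standard error 0.34, 95% interval -0.44 to 1.003, adjusted p = 0.63). Of all hairpins, 34% passed in TI against AG, 23.6% in TIM against AG and 3.3% in TIM against TI. Without AG a the first 2 differences turned to -0.49 and -0.21 (adjusted p = 0.45 and 0.82 from limma).

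The arm ratio of miR-21a in AG a was 1.99 lower on the log2 scale than the mean of AG b and AG c. This was the largest such deviation of the 212 hairpins, whose median absolute deviation from that mean was 0.27, and it was looked at because AG a had been seen to stand apart. In this library both arms were higher than in the other AG libraries, mmu-miR-21a-3p by more than mmu-miR-21a-5p.

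Within the tumor groups the arms were compared with each other over the libraries. In TI the log2 levels of both arms correlated with Pearson's r = 0.85 (exact permutation test, p = 0.0095, adjusted p = 0.038 over 4 relations) and Spearman's rho = 0.89 (exact permutation test, p = 0.012, adjusted p = 0.049) over 7 libraries. In TIM they correlated with r = 0.62 (exact permutation test, p = 0.11, adjusted p = 0.22) and rho = 0.60 (exact permutation test, p = 0.13, adjusted p = 0.26) over 8 libraries. Without the 2 libraries farthest from the median level of mmu-miR-21a-5p, r was 0.98 in TI and 0.81 in TIM. Both arms of a library share its scaling factor, and the 3p levels rest on few reads.

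**Figure D5:**
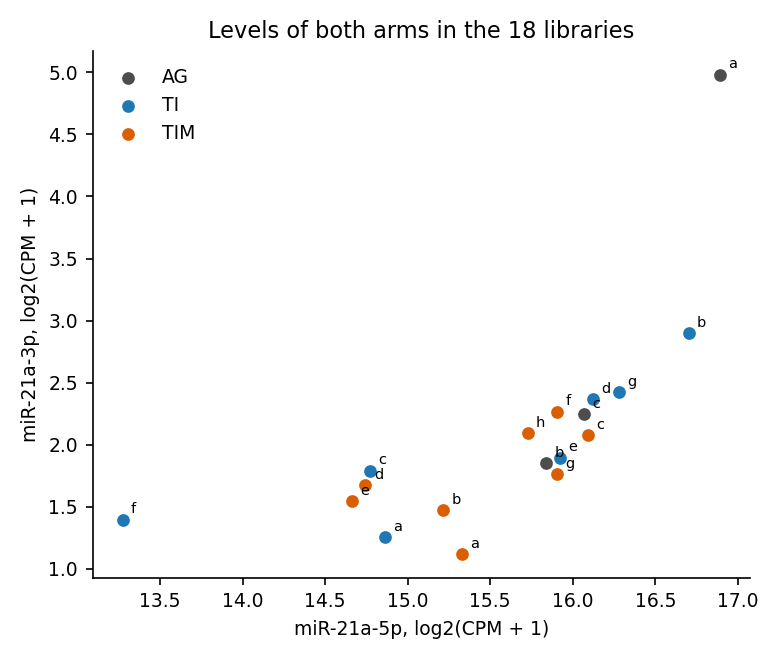
Level of mmu-miR-21a-3p against mmu-miR-21a-5p, both in log2(CPM + 1), for the 18 libraries, coloured by group and lettered as in the text. The arms had r = 0.85 in TI and 0.62 in TIM, the latter not passing (exact permutation test, adjusted p = 0.22). AG a lies far above the other points, and TI f lies far to the left of them.

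The share of mmu-miR-21a-5p was also set against that of miR-148a-3p, since both are parts of the same total. In TI Pearson's r was -0.47 (exact permutation test, p = 0.29, adjusted p = 0.29) and Spearman's rho -0.50 (exact permutation test, p = 0.27, adjusted p = 0.27). In TIM r was -0.43 (exact permutation test, p = 0.22, adjusted p = 0.29) and rho -0.45 (exact permutation test, p = 0.27, adjusted p = 0.27). Without the 2 libraries farthest from the median share of miR-148a-3p, r was -0.50 in TI and -0.90 in TIM. A relation between these shares was thus not shown in either tumor group.

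The miRNAs whose log2 levels were most like those of mmu-miR-21a-5p over the 18 libraries were looked for among 399 others with a mean of at least 10 CPM, as a description. MiR-142a-3p, a miRNA of blood-forming cells, came first with Pearson's r = 0.88. It was followed by miR-140-5p (0.79), known from cartilage, miR-423-5p (0.79), let-7j (0.79) and miR-34a-5p (0.78), a target of p53. In the 15 tumor libraries alone their r was 0.87, 0.75, 0.84, 0.75 and 0.75. The median r over the 399 was 0.02, and r with miR-148a-3p was -0.33. MiR-142a-3p had 55.8 ± 15.9 CPM in AG (SD, n = 3), 30.3 ± 21.6 CPM in TI (SD, n = 7) and 20.998 ± 9.50 CPM in TIM (SD, n = 8). All values of a library share its depth and scaling factor, and the 3 groups enter together. Let-7j is close in sequence to other let-7 members, so that its reads are uncertain.

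MiR-142a-3p is also one of the 6 leukocyte markers, and the marker lists are given by group, beside the 55.8% of all miRNAs that passed in TI against AG and the 51.4% in TIM against AG. The summed leukocyte markers ran from 654 to 1039 CPM in AG, from 273 to 1372 CPM in TI and from 145 to 518 CPM in TIM. In limma miR-142a-5p, miR-150-5p and miR-223-3p, 3 of 6, were lower in TI than in AG, and these and miR-142a-3p, 4 of 6, were lower in TIM, with miR-150-5p, a miRNA of mature lymphocytes, at log2 fold changes of -4.05 and -3.90 (adjusted p = 0.00015 and 0.00018). Both endothelial miRNAs, miR-126a-3p (log2 fold changes of -3.63 and -3.18) and miR-126a-5p (-3.36 and -2.97), were lower in both tumor types, with sums of 38529 to 46092 CPM in AG, 1704 to 6736 CPM in TI and 2428 to 8943 CPM in TIM. Of the 6 stromal and smooth muscle miRNAs, 4 were lower in TI and 4 in TIM, with miR-199a-5p at -2.14 in TI and miR-145a-5p at -2.15 in TIM, while miR-133a-3p did not pass (-0.34 in TI and 0.78 in TIM). Their sum ran from 124328 to 210991 CPM in AG, from 16135 to 171669 CPM in TI and from 16242 to 101976 CPM in TIM. Of the 4 erythroid miRNAs, 0 passed in limma, 0 at an unadjusted p under 0.05, and 0 in edgeR or DESeq2, with sums of 715 to 2471 CPM in AG, 344 to 4425 CPM in TI and 172 to 2605 CPM in TIM. Of the 5 neural and neuroendocrine miRNAs, 3 were higher in each tumor type, miR-9-5p, miR-9-3p and the neuronal miR-124-3p, the last with 4.86 in TI and 4.93 in TIM, and miR-375-3p did not pass (-1.75 and -2.27). Their sum ran from 45276 to 108209 CPM in AG, from 32455 to 250127 CPM in TI and from 43452 to 247618 CPM in TIM. The leukocyte, stromal and neural counts are near the shares of all miRNAs called, but those shares count calls in either direction. Of all miRNAs called, 47.4% were higher in TI and 49.6% in TIM, while the calls within each of these lists went in 1 direction. On totals without miR-148a-3p the leukocyte counts were 1 in TI and 2 in TIM and the stromal counts 2 and 4. Of all 726 miRNAs, 369 were called there in TI and 338 in TIM. EdgeR called 2 stromal miRNAs lower in TI, beside 402 of all 726 called. Between TIM and TI 0 of the markers passed in limma or edgeR. At an unadjusted p under 0.05 limma had 1, the leukocyte miR-146a-5p (-1.12), which was lower in TIM, and edgeR had this one and the muscle miR-133a-3p, which was higher. DESeq2 called miR-146a-5p lower, beside 123 of all 726 miRNAs called between TIM and TI. With CPM without the TMM factor both endothelial miRNAs were higher in TIM than in TI, beside 155 of all 726 called. Without AG a the counts were 2 of 6 leukocyte miRNAs lower in each tumor type, 1 and 2 of 6 stromal ones, both endothelial ones, no erythroid one, and 3 of 5 neural ones higher, where 42.7% of all miRNAs passed in TI and 33.3% in TIM. MiR-223-3p, miR-9-5p and miR-9-3p were named after their values were seen. The part of these cell types in the levels of miR-21a was not tested.

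Other miRNAs known as oncogenic in tumors were counted beside miR-21a-5p. Of 16 such miRNAs, 7 were lower and 0 higher in TI than in AG, and 5 were lower and 1 higher in TIM. The share called in either direction, 7 of 16 in TI and 6 of 16 in TIM, was not above the 55.8% and 51.4% of all miRNAs tested. On totals without miR-148a-3p the counts in TI were 4 lower and 2 higher, and in TIM 3 lower and 2 higher. Of all 726 miRNAs, 369 were called there in TI and 338 in TIM. At an unadjusted p under 0.05 limma had 2 higher in TI, miR-17-5p and miR-92a-3p, and edgeR called both. DESeq2 called 3 higher in TI, with miR-20a-5p as the third. In TIM edgeR called these 3 higher and DESeq2 these and miR-183-5p. Of all 726 miRNAs, edgeR called 402 in TI and 352 in TIM, and DESeq2 437 and 423, in either direction. MiR-92a-3p, miR-20a-5p and miR-183-5p were named after their values were seen. The median log2 fold change of the list was -1.53 in TI and -0.86 in TIM, and it stayed below 0 under each scaling tried. The 1 that limma called higher in TIM was miR-17-5p of the miR-17/92 cluster, from 56.5 ± 26.6 CPM in AG (SD, n = 3) to 394 ± 308 CPM in TIM (SD, n = 8), which is 2.23 on the log2 scale (limma, adjusted p = 0.044). In TI it had 273 ± 180 CPM (SD, n = 7), a difference of 1.94 (limma, adjusted p = 0.077). It did not pass in TIM with median ratio scaling, where 0 of the 16 were called higher, beside 175 higher among all 372 miRNAs called. The lowest was miR-222-3p, known to target the cell cycle inhibitor p27, with log2 fold changes of -3.72 in TI and -3.66 in TIM. MiR-155-5p, an oncogenic miRNA of lymphocytes that is also on the leukocyte list, had 14.2 CPM in AG, 8.94 CPM in TI and 5.44 CPM in TIM and did not pass (adjusted p = 0.19 and 0.050 from limma). Between TIM and TI 0 of the 16 passed in limma and 0 in edgeR, with 1 higher and 1 lower at an unadjusted p under 0.05 in limma and 3 higher and 1 lower in edgeR. DESeq2 called miR-182-5p, miR-183-5p and miR-96-5p higher and miR-210-3p lower in TIM, beside 123 of all 726 miRNAs called. The first 3 of these were named after their values were seen. In limma miR-10b-5p was the highest (2.45, adjusted p = 0.085 from limma) and miR-210-3p the lowest (-1.10, adjusted p = 0.092 from limma). Without AG a 3 of the 16 were lower in TI, 4 were lower in TIM and 0 were higher. In that fit 42.7% of all miRNAs were called in TI and 33.3% in TIM. MiR-17-5p was thus not called in TIM without AG a. The number of all calls in TIM against AG fell from 373 to 242, 295 and 284 without AG a, AG b and AG c. The list was not counted without AG b or AG c, so a dependence on AG a in particular was not shown.

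Chromosome 11 holds the miR-21a hairpin, and the other miRNAs of that chromosome were counted for comparison. Of 58 tested, 6 were higher and 23 lower in TI than in AG, and 6 higher and 23 lower in TIM. Thus 29 of 58 passed in each, which is near the share of all miRNAs tested that passed in either direction. The directions were less even than among all miRNAs called, of which 47.4% were higher in TI and 49.6% in TIM. Both arms of a hairpin count separately here, so the 58 are not independent, and the direction was not tested. The median log2 fold change of the 58 was -0.54 in TI and -0.99 in TIM, against -0.01 and 0.18 for all miRNAs tested. The highest was miR-218-2-3p (3.24 in TI and 2.85 in TIM) and the lowest miR-196a-1-3p (-6.59 and -6.44). Between TIM and TI 1 of the 58 differed, miR-196a-5p, with a log2 fold change of -4.50 (limma, adjusted p = 0.0014). This miRNA is also made from a second hairpin elsewhere in the genome. Without AG a the counts of the 58 were 4 higher and 18 lower in TI, and 3 higher and 15 lower in TIM. In that fit 42.7% of all miRNAs tested were called in TI and 33.3% in TIM, in either direction.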

How the data were processed

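Per the labels, total RNA was extracted with TRIzol from about 30 mg of tissue for small RNA libraries. According to the submitters' processing notes, cutadapt 2.8, Bowtie2 2.3.5.1, featureCounts 2.0.0, edgeR 3.40 and mm10 were used, and the paper's methods name Bowtie2 for the alignment. The authors deposited a signal per miRNA and library, reads divided by the product of library total and TMM factor in CPM. The same table holds the authors' own comparisons (fold changes, p-values and FDR), which were not used. A single read has 1 value per library, and 100% of the deposited values were multiples of it within 0.1 read, from which reads were recovered for shares, arm ratios and count tests.

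Levels were tested with limma 3.58.1 (trend, R 4.3.3) on log2(CPM + 1), since the values are not counts, and arm ratios with limma on log2((5p + 1)/(3p + 1)), each with all 18 libraries in 1 model. A fold change on this scale understates that of low miRNAs. Shares were tested by exact permutation, doubling the smaller tail, in Python 3.11.15 with scipy 1.17.1. edgeR 4.0.16 and DESeq2 1.42.0 on recovered reads, pseudocounts of 0.1 and 5, other scalings and filters and each library left out were alternatives. The fits were tested on simulated data. No pair of libraries was identical. The members, lists and markers were chosen with earlier results of these data known. Named beside the members were seed and name relatives, the 3 most abundant miRNAs of each group, the 5 most alike, and the extremes and first member of each list, and others are marked as chosen later. RefSeq matched 1675 of 1966 names and 630 of 726 tested ones (86.8%) to a chromosome.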

Additional observations from a re-analysis of the deposited data

How the results depend on the processing

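The level of miR-21a-5p against AG kept its direction and did not pass in any alternative or with a library left out, with log2 fold changes in TI from -1.06 to -0.32 and in TIM from -1.03 to -0.22. Between TIM and TI it reversed to -0.034 with median ratio scaling, -0.20 in edgeR and -0.18 in DESeq2, was 0.59 with CPM without the TMM factor, and ran from -0.33 to 0.24 with a library left out. MiR-21a-3p in TI passed in edgeR (-1.77, adjusted p = 0.017) but not in edgeR without AG a (-0.029, adjusted p = 0.97), and ran from -1.61 to -0.045 with a library left out. In TIM it no longer passed with CPM without the TMM factor (-0.998), on totals without miR-148a-3p (-0.82), without a filter (-1.27), with 2 groups in the model (-1.27), by exact permutation with the smaller tail doubled (-1.27) and in edgeR without AG a (-0.44), the last chosen after seeing the data, and ran from -1.86 to -0.30 with a library left out. DESeq2 gave it -1.90 in TI and -2.31 in TIM with no adjusted p. Between TIM and TI it reversed to 0.16 with CPM without the TMM factor. The arm log ratio in TI reversed to -0.14 with a pseudocount of 5, and with a library left out the range was -0.49 to 0.55 in TI and -0.21 to 0.83 in TIM. The shares of miR-21a-5p kept direction and side throughout. The cause of these changes was not tested.

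The 38 miRNAs that differed between TIM and TI became 21 with a pseudocount of 5, 155 with CPM without the TMM factor, 21 without a filter, 17 with at least 10 CPM, 23 with 2 groups in the model, 3 in edgeR and 123 in DESeq2, and 24 to 72 with a library left out. The 373 in TIM against AG became 242 to 381 with a library left out. Of the hairpins, 72 in TI, 50 in TIM and 7 between the tumor types became 45, 27 and 4 with at least 10 CPM, the 7 became 1 with a pseudocount of 0.1 and 4 with 2 groups in the model, and with a library left out the counts ran from 45 to 83, from 32 to 56 and from 4 to 28. MiR-21a-3p could not be fitted at 10 CPM. Scaling moved the share of higher calls in TI from 47.4% to 59.3%, and in TIM from 49.6% to 65.7% on totals without miR-148a-3p, where the median of all miRNAs moved from -0.01 to 0.34 and from 0.18 to 0.57. Between TIM and TI it moved from 65.8% to 89.0% with CPM without the TMM factor, where the median moved from 0.06 to 0.49, and to 50.9% with median ratio scaling. No paired analysis was possible because no replicate number stands in the column names. With 18 to 106 reads in the tumors, depth limits miR-21a-3p and the arm ratio, and 3 AG libraries limit every comparison with AG.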
